A study of Mus musculus with 46 samples.

Results

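Macrophages grown in culture from mouse bone marrow (bone marrow-derived macrophages, BMDM) were compared under 2 combined treatments by bulk RNA sequencing. One group of 5 libraries had received GW3965, a synthetic agonist of the liver X receptors (LXR), together with a second compound, and is referred to as the GW3965 combination. The other group of 5 libraries had received ICI together with 27-hydroxycholesterol (27HC), an oxysterol that binds both LXR and the estrogen receptors. These 10 libraries were chosen by their column names and titles out of 46 libraries in 9 groups. The labels disagree on the second compound of the GW3965 combination: the titles and the column names of the count table give 27HC, whereas the source and treatment labels give ICI. By the titles, both groups held 27HC and differed in GW3965 against ICI. By the source and treatment labels, both groups held ICI and differed in GW3965 against 27HC. The expression values were not used to choose between these readings, and each comparison with the single compounds is given for both. Vehicle (6 libraries) and the groups given 27HC, ICI or GW3965 alone (5 libraries each) serve as further reference. ICI is taken here as the estrogen receptor antagonist fulvestrant, although the labels used here say only ICI. The labels give no mouse strain, age, dose or time of exposure, and do not say whether replicates came from separate animals or cultures, so that p-values measure the spread between these libraries, which may be technical.

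LXR alpha (Nr1h3) and LXR beta (Nr1h2) are nuclear receptors that, when an oxysterol binds them, induce cholesterol exporters, enzymes of phospholipid remodelling and fatty acid synthesis, the last in part through the transcription factor encoded by Srebf1. Oxysterols such as 27HC also bind the Insig proteins, which hold the SREBP transcription factors in the endoplasmic reticulum, so that genes of cholesterol synthesis are known to be turned down by an oxysterol. GW3965 is not a sterol and is known for acting on LXR. In macrophages, ligand-bound LXR is also known to hold back genes driven by NF-kB, the transcription factor of the inflammatory response.

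Total estimated counts of the 10 libraries ran from 19887160 to 29363921. The share of mitochondrial transcripts was 1.80% ± 0.220 (SD, n = 5) in the GW3965 combination and 1.66% ± 0.118 (SD, n = 5) with ICI + 27HC, and the libraries of the groups overlapped. Macrophage genes were abundant, with up to 56683 counts of the growth factor receptor gene Csf1r and 41323 of Adgre1 in a library. Of 11 neutrophil markers, Ly6g and Retnlg had 0 counts in all 10 libraries. Lymphocyte markers differed: Cd3e reached at most 4 counts and Cd79a at most 2, but Cd4 reached 160, Cd79b 58 and Cd8a 31. Cd79b was called higher in the GW3965 combination (edgeR adjusted p = 0.0301) and lost the call under 8 other settings. Markers of dendritic cells other than Irf8 and Itgax reached at most 37 counts, and Cd209a had 0. Stromal transcripts were present: Col1a1 reached 35049 counts, and the summed level of the 10 stromal markers tested ran from 4091 to 4835 CPM (normalised counts, set to the same library total) in the GW3965 combination and from 3715 to 4179 CPM with ICI + 27HC. Among the 10 stromal markers tested, 4 were higher (Col3a1, Col6a1, Sparc, Acta2) and 3 lower (Pdgfra, Pdgfrb, Cxcl12) in the GW3965 combination. The shares of all genes were 15.8% and 15.4%, and the part of these markers in the results was not tested. Replicate 3 of the GW3965 combination stood apart from the other four at several inflammatory genes, and results that rest on it are given with and without it.

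The 2 combinations differed at many genes, most of them by little. Of 13838 genes tested, 4306 passed an adjusted p of 0.05 in edgeR's quasi-likelihood test, a share of 31.1%. The calls were split evenly, with 2180 genes higher in the GW3965 combination (15.8%) and 2126 lower (15.4%). These shares are the background for every count of list members called in this comparison. Most differences were small: 113 genes were called and at least 2-fold higher (0.817%) and 151 called and at least 2-fold lower (1.09%). In 2876 genes (20.8%) the libraries of the groups did not overlap, with the combination higher in 1422 (10.3%) and lower in 1454 (10.5%). The median log2 fold change over all genes tested was 0.0032, where a positive value means a higher level in the GW3965 combination. Since the RNA comes from whole cultures, fewer cells of a type and less RNA per cell cannot be told apart in any of these differences.

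**Figure D1:**
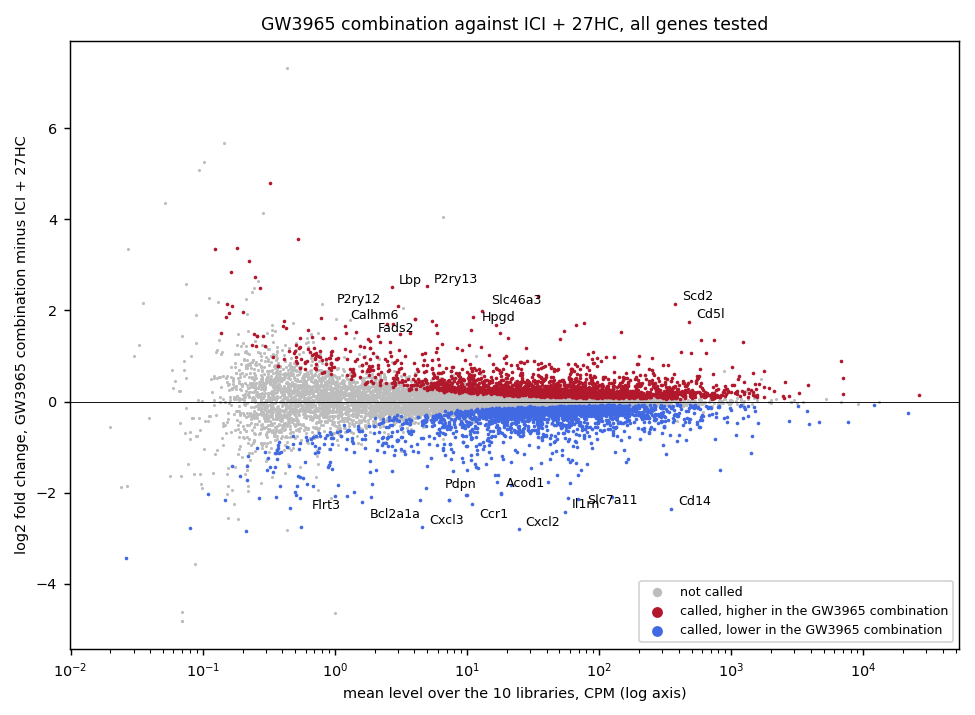
Each point is 1 of the 13838 genes tested, with its mean level over the 10 libraries in CPM on a log axis and its log2 fold change, GW3965 combination minus ICI + 27HC. Red points (2180) were called higher, blue points (2126) called lower and grey points not called, and the genes named are among the 10 highest and 10 lowest called genes of at least 1 CPM whose groups did not overlap.

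Direct LXR targets were the list with the highest median difference of those with at least 10 members tested. Of 24 tested LXR targets, 19 were higher in the GW3965 combination and 2 lower, where 15.8% and 15.4% of all genes were, and the list's median log2 fold change was 0.98 against 0.0032 over all genes. The cholesterol exporter gene Abca1 stood at 1818, 1676, 1629, 1787 and 1834 CPM in the 5 GW3965 combination libraries and at 729, 707, 653, 730.1 and 715 CPM in the 5 ICI + 27HC libraries. Its log2 fold change was 1.31 (SE 0.0659, edgeR adjusted p = 1.63e-20). All combination libraries lay above all ICI + 27HC libraries. Abcg1, which passes cholesterol on to high-density lipoprotein, stood at 856, 845, 805, 868 and 865 CPM against 338, 318, 303, 341 and 350.3 CPM, again with no overlap (log2 fold change 1.36, SE 0.0658, edgeR adjusted p = 3.24e-21). Both exporters were also above Vehicle in each combination, since Abca1 averaged 394 ± 32.7 CPM (SD, n = 6) and Abcg1 41.2 ± 7.25 CPM (SD, n = 6) there.

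Srebf1 encodes the lipogenic transcription factor SREBP1. It stood at 222, 217, 209, 204 and 234 CPM in the GW3965 combination and at 74.5, 73.8, 68.5, 81.7 and 77.6 CPM with ICI + 27HC, a log2 fold change of 1.53 (SE 0.0498, edgeR adjusted p = 5.38e-28). The ICI + 27HC mean of 75.2 ± 4.87 CPM (SD, n = 5) lay within 1 SD of the 27HC mean (79.4 ± 4.24 CPM, SD, n = 5), and the highest Vehicle library stood at 74.6 CPM. GW3965 alone gave 363 ± 8.18 CPM (SD, n = 5), above both combinations. Other LXR targets with small p-values were Pltp, a phospholipid transfer protein (log2 fold change 1.35, SE 0.0347), and Eepd1, which takes part in cholesterol efflux (1.73, SE 0.0466). Lpcat3, which remodels membrane phospholipids, differed by 1.10 (SE 0.0348) and the secreted macrophage protein gene Cd5l by 1.75 (SE 0.0463) on the log2 scale. Mylip, which encodes a ubiquitin ligase, had a smaller difference of 0.64 (SE 0.0336, edgeR adjusted p = 2.30e-20). The members that were lower were Plin2, a lipid droplet coat gene (-0.33, SE 0.0295), and Npc2, a lysosomal cholesterol carrier (-0.11, SE 0.0313). Nr1h3, Nr1h2 and Npc1 did not pass the test, and Abcg5 had too few counts to be tested.

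**Figure D2:**
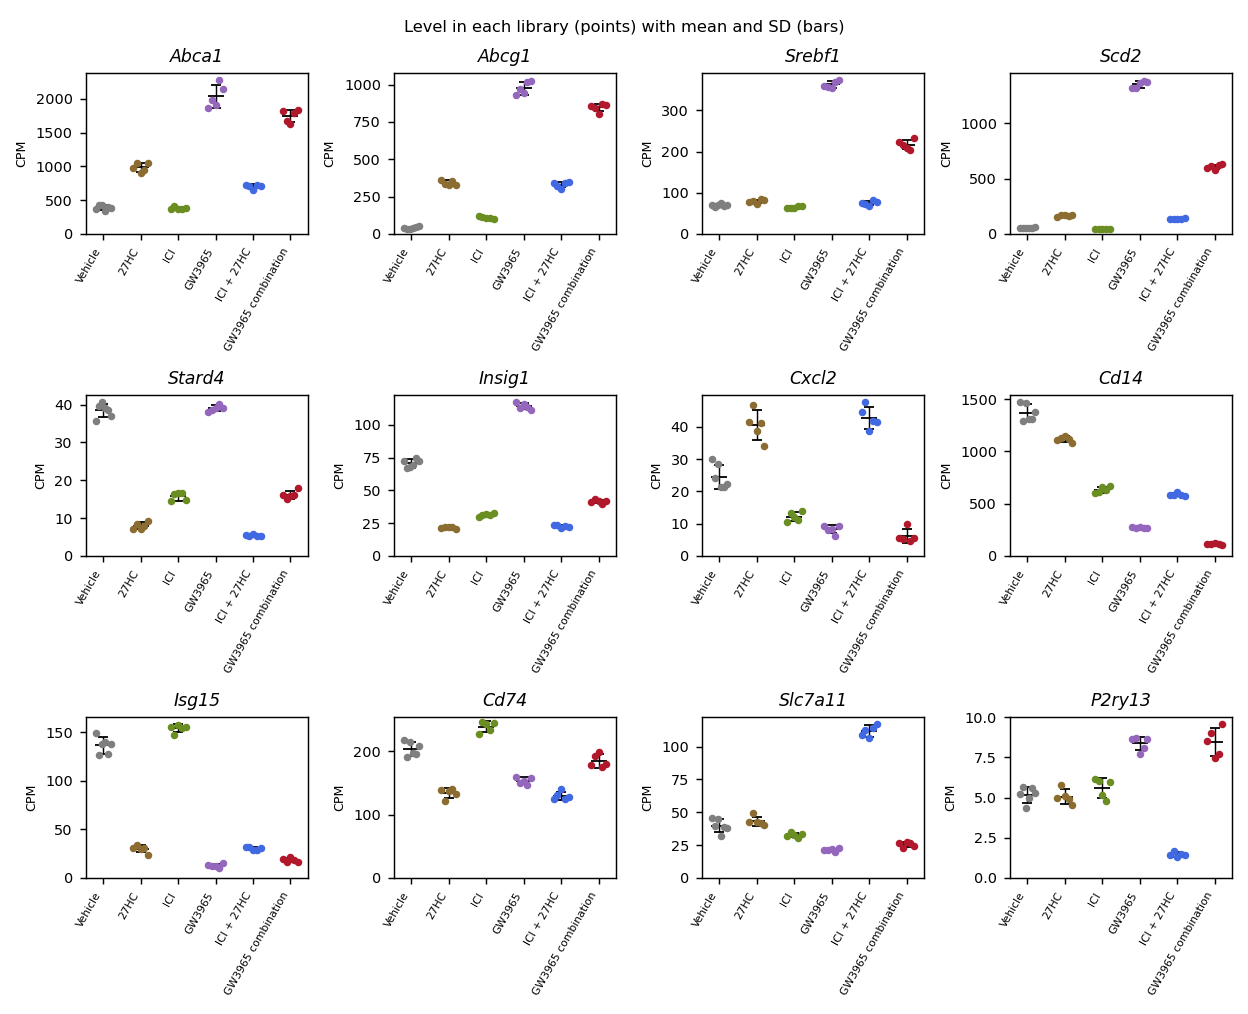
Each panel shows 1 gene: points are libraries, bars the group mean with its SD, and the vertical axis the level in CPM from 0, for Vehicle (6 libraries) and 5 treatments (5 libraries each). Abca1, Abcg1, Srebf1, Scd2, Stard4, Insig1, Cd74 and P2ry13 were higher and Cxcl2, Cd14, Isg15 and Slc7a11 lower in the GW3965 combination than with ICI + 27HC, with no overlap between the libraries of those groups.

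Fatty acid synthesis genes moved in one direction where they were called. Of 16 tested, 12 were higher in the GW3965 combination and 0 lower, with a median log2 fold change of 0.47 against 0.0032 over all genes. Acaca, Acacb, Elovl6 and Hsd17b12 did not pass the test. Srebf1, Scd1, Scd2 and Fads1 are also counted among the higher LXR targets, so the lists are not separate results. Scd2, a stearoyl-CoA desaturase that puts a double bond into saturated fatty acids, stood at 598, 610.4, 579.9, 619.9 and 631 CPM against 135, 136, 133, 139 and 145 CPM, a log2 fold change of 2.14 (SE 0.0410, edgeR adjusted p = 1.00e-36). The groups were far apart, yet GW3965 alone gave 1354 ± 32.1 CPM (SD, n = 5) and Vehicle 54.7 ± 2.60 CPM (SD, n = 6), so that the GW3965 combination lay between Vehicle and GW3965 alone. Scd1 rose likewise, from 9.31 ± 0.597 to 26.2 ± 1.09 CPM (SD, n = 5 each). The desaturases of polyunsaturated fatty acids differed unequally: Fads2 had a log2 fold change of 1.76 (SE 0.114) and Fads1 of 0.47 (SE 0.0285).

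Genes of cholesterol synthesis and uptake, which are the textbook targets of SREBP2, were mostly higher in the GW3965 combination, but by less than the LXR targets except at a few genes. Of 24 tested, 17 were higher and 1 lower (Mvd, log2 fold change -0.21), with a median of 0.31 against 0.0032 over all genes. Insig1 and Stard4 lay between the ICI + 27HC level and the Vehicle level in the GW3965 combination. Insig1, which retains the SREBP proteins, stood at 41.3, 43.3, 42.1, 39.7 and 42.2 CPM in the GW3965 combination and at 23.4, 23.4, 21.2, 23.1 and 21.7 CPM with ICI + 27HC, a log2 fold change of 0.89 (SE 0.0372, edgeR adjusted p = 7.87e-24), against 70.6 ± 3.20 CPM (SD, n = 6) with Vehicle. Stard4, a cholesterol carrier in the cytosol, stood at 16.2, 14.9, 15.8, 16.1 and 17.9 CPM against 5.49, 5.33, 5.72, 5.24 and 5.26 CPM (1.58, SE 0.0645, edgeR adjusted p = 2.61e-24), and averaged 38.5 ± 1.82 CPM (SD, n = 6) with Vehicle. In both genes the libraries of the combinations did not overlap. Insig1 ran from 20.5 to 22.2 CPM with 27HC alone, from 30.0 to 32.6 CPM with ICI alone and from 112 to 118 CPM with GW3965 alone. Stard4 ran from 7.17 to 9.30 CPM with 27HC, from 14.4 to 16.7 CPM with ICI and from 38.1 to 40.2 CPM with GW3965. Both genes thus lay below Vehicle with ICI alone as well as with 27HC alone. Srebf2, the gene of SREBP2 itself, had a log2 fold change of 0.75 (SE 0.0425). Hmgcs1, at the start of the pathway, differed by only 0.24 (SE 0.0404, edgeR adjusted p = 5.60e-06). Fdft1, Lss, Tm7sf2, Msmo1 and Nsdhl did not pass the test.

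The receptor genes themselves differed little or were scarcely expressed. Nr1h2 averaged 73.4 ± 4.78 CPM in the GW3965 combination and 73.4 ± 1.65 CPM with ICI + 27HC (SD, n = 5 each), a log2 fold change of 0.0006 (SE 0.0382, edgeR adjusted p = 0.993). Nr1h3 averaged 37.0 ± 5.39 and 39.5 ± 3.09 CPM (SD, n = 5 each), a log2 fold change of -0.092 (SE 0.0655, edgeR adjusted p = 0.314). Without replicate 3 of the GW3965 combination the Nr1h3 difference was called, at -0.19 on the log2 scale. Esr1, the gene of estrogen receptor alpha, had between 51 and 103 counts in the 10 libraries. Its level averaged 3.46 ± 0.509 against 2.45 ± 0.247 CPM (SD, n = 5 each) and was called higher (0.50, SE 0.119, edgeR adjusted p = 8.74e-04), although the libraries of the groups overlapped. Esr2, the gene of estrogen receptor beta, had 0 to 4 counts and was not tested.

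Inflammatory genes were lower in the GW3965 combination. Of 24 tested cytokine, chemokine and NF-kB target genes, 19 were lower and 0 higher, with a median log2 fold change of -0.81 against 0.0032 over all genes. Il1a, Il12b, Il18, Nos2 and Nfkb1 did not pass the test. Without replicate 3 of the combination, 19 were again lower and 0 higher, and the median was -0.99. A 10-base NF-kB motif, GGGANNTTCC searched on both strands, was found in the promoters (250 bases before to 50 after the start, RefSeq, GRCm38.p6) of 7 of the 17 listed genes that have a promoter entry, and in 1.63% of the promoters of 27025 genes. All 7 (Il6, Cxcl1, Cxcl2, Cxcl3, Cxcl10, Nfkbia, Nfkb2) were among the genes called lower, as were 19 of the 24 listed genes. The list was drawn up to hold NF-kB targets, so its motif share describes the list and not this comparison. The promoter of Cxcl10 also held the interferon motif given further on. The stretches around the motif are shown for 3 neighbouring neutrophil-attracting chemokine genes, for the cytokine gene Il6 and for Nfkbia, the inhibitor of NF-kB that NF-kB itself switches on, with every match on either strand in capitals. They read 5′ to 3′ on the gene's strand.
Cxcl1 (chr5:90891149-90891208, GRCm38.p6, plus strand): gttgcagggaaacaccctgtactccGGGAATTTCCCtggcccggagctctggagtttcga
Cxcl2 (chr5:90903777-90903836, GRCm38.p6, plus strand): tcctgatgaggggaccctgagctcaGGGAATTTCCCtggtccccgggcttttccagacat
Cxcl3 (chr5:90786003-90786062, GRCm38.p6, plus strand): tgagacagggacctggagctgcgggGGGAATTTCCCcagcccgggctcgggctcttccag
Il6 (chr5:30013045-30013104, GRCm38.p6, plus strand): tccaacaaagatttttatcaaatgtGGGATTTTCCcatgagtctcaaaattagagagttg
Nfkbia (chr12:55492648-55492701, GRCm38.p6, minus strand): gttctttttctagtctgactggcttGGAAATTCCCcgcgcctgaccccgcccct
In Cxcl1, Cxcl2 and Cxcl3 a match on each strand overlaps the other and both are capitalised as one run, and in Nfkbia the motif stands in its reverse-strand form. These genes were picked for the motif with their values known, and a match describes letters, not binding.

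Cxcl2 stood at 5.58, 5.19, 9.82, 4.61 and 5.66 CPM in the 5 libraries of the GW3965 combination and at 44.7, 47.6, 38.8, 41.7 and 41.5 CPM in the 5 of ICI + 27HC. The groups were far apart, although replicate 3 of the combination lay clearly above the other four (log2 fold change -2.80, SE 0.135, edgeR adjusted p = 3.17e-21, and -3.04 without that library). Cxcl3 showed the same shape at a lower level, with 0.762, 0.991, 2.88, 0.644 and 0.562 CPM against 7.89, 7.62, 7.81, 8.78 and 7.38 CPM (-2.76, SE 0.289, edgeR adjusted p = 1.27e-10, and -3.41 without replicate 3). Cxcl1 averaged 2.07 ± 0.663 against 7.71 ± 0.328 CPM (SD, n = 5 each; -1.89, SE 0.175). Nfkbia averaged 121 ± 9.58 against 152 ± 6.37 CPM (SD, n = 5 each), a smaller difference of -0.33 (SE 0.0426) on the log2 scale. Il6, under 1 CPM in both groups, was called lower (-1.03, SE 0.385, edgeR adjusted p = 0.0372) with overlapping libraries.

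The 3 chemokine genes lie in one cluster on chromosome 5 (GRCm38), and its other members were looked at after these values were seen. Next to Cxcl3, which starts at 90786103, lie Pf4 and Ppbp, platelet-type chemokine genes, and both were called lower (-0.68, SE 0.0416, and -2.75, SE 0.267). Mthfd2l and Ereg in the same stretch did not pass the test, and Rassf6 at its edge was called higher (0.89, SE 0.218). Cxcl5 did not pass the test either, but averaged 0.0393 CPM, too little to judge. The difference therefore did not extend to every gene of the neighbourhood.

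Other inflammatory genes were lower by amounts between those of Cxcl2 and Nfkbia. The macrophage chemokine genes Ccl4 (-1.61, SE 0.0557), Ccl2 (-1.84, SE 0.108) and Ccl3 (-1.35, SE 0.0810) fell, as did Tnfaip3, a feedback inhibitor of NF-kB (-0.77, SE 0.0489). Il1rn, which encodes the interleukin-1 receptor antagonist, stood at 14.0, 18.4, 18.6, 18.7 and 16.9 CPM against 92.4, 98.1, 88.1, 91.6 and 92.6 CPM (-2.42, SE 0.0749, edgeR adjusted p = 1.50e-28). Of the cytokines it opposes, Il1b was called lower with overlapping libraries (-0.98, edgeR adjusted p = 0.0116). Il1a did not pass the test (-0.16, edgeR adjusted p = 0.553). Acod1, which makes itaconate in activated macrophages, stood at 18.7, 18.7, 35.2, 18.1 and 18.0 CPM against 95.3, 89.4, 92.5, 92.7 and 98.2 CPM (-2.11, SE 0.144, edgeR adjusted p = 8.11e-16). Replicate 3 was again the highest combination library, the groups did not overlap, and the log2 fold change without it was -2.35. Flrt3, Pdpn and Bcl2a1a were also among the 10 lowest genes, at -2.21, -2.17 and -2.16 on the log2 scale. The Pdpn counts were identical to those of 1 other gene model in the table, and Bcl2a1a belongs to a family of near-identical copies, so that the assignment of their reads is uncertain. Of the 11 neutrophil markers, Csf3r reached 990 counts in a library and S100a8 40, the other 9 had at most 10, and neither Csf3r nor S100a8 passed the test.

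Receptors that sense bacteria and chemoattractants were not lowered as one group. Cd14, the co-receptor of bacterial lipopolysaccharide and a macrophage marker, had the smallest p of the genes called lower. It stood at 117, 111, 128, 115 and 106 CPM in the GW3965 combination and at 587, 587, 616, 581 and 578 CPM with ICI + 27HC (log2 fold change -2.36, SE 0.0440, edgeR adjusted p = 6.97e-37). Every other group lay above the combination, GW3965 alone at 271 ± 5.84 CPM (SD, n = 5) being the nearest of the single compounds. Of 14 tested Toll-like receptor genes and adaptors, 4 were lower (Tlr2, Tlr7, Cd14, Ticam1) and 4 higher (Tlr1, Tlr8, Tlr9, Unc93b1), with a median of 0.046. The shares of all genes were 15.4% lower and 15.8% higher. Tlr7 and Tlr8, both sensors of single-stranded RNA, went opposite ways: Tlr7 averaged 34.3 ± 2.27 against 57.8 ± 3.12 CPM and Tlr8 79.7 ± 9.23 against 49.9 ± 2.77 CPM (SD, n = 5 each). Unc93b1, which carries such receptors to endosomes, was higher (0.51, SE 0.0253).

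Among 11 tested chemoattractant receptors, 6 were lower and 4 higher, where 15.4% and 15.8% of all genes were, with a median log2 fold change of -0.53. Ccr1, a receptor of inflammatory chemokines, stood at 3.81, 3.76, 4.74, 3.29 and 3.23 CPM against 18.7, 18.2, 17.9, 17.1 and 17.5 CPM (-2.25, SE 0.0874, edgeR adjusted p = 4.99e-25), with no overlap. Smaller declines were found at Ccrl2 (-1.18, SE 0.102), Cxcr4 (-0.73, SE 0.0450) and the complement receptor gene C5ar1 (-0.39, SE 0.0343). The higher members were Ccr2, Cx3cr1, C3ar1 and Ackr3.

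Interferon-response genes were lower in the GW3965 combination, by smaller factors than the inflammatory genes. Of 28 tested, 21 were lower and 0 higher, with a median log2 fold change of -0.35 against 0.0032 over all genes. Their summed level ran from 1425 to 1545 CPM in the combination libraries and from 1791 to 1951 CPM in the ICI + 27HC libraries, without overlap. The interferon-stimulated response element, taken as GAAANNGAAA on both strands, was found in 11 of the 20 listed genes with a promoter entry and in 3.99% of all 27025, and 8 of the 11 were among the genes called lower. In the whole list, 21 of 28 were called lower. The list was drawn up to hold interferon-response genes, so its motif share describes the list and not this comparison. Stretches around the first match of the motif are shown for 5 of the 8, with every match in the stretch in capitals and overlapping matches as one run (in Isg15 and Bst2), read 5′ to 3′ on the gene's strand, where some hold the reverse-strand form.
Ifit1 (chr19:34640760-34640819, GRCm38.p6, plus strand): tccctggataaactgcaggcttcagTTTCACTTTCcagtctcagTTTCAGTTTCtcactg
Ifit3 (chr19:34583348-34583407, GRCm38.p6, plus strand): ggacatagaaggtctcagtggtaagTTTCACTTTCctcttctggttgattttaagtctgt
Isg15 (chr4:156200862-156200921, GRCm38.p6, minus strand): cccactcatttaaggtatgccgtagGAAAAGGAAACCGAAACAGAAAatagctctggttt
Oas3 (chr5:120777700-120777759, GRCm38.p6, minus strand): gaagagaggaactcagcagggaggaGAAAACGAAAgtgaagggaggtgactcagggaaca
Bst2 (chr8:71537568-71537627, GRCm38.p6, minus strand): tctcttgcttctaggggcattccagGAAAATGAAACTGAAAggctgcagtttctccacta
Isg15, a ubiquitin-like protein gene, stood at 19.0, 16.6, 21.4, 18.3 and 16.6 CPM against 31.4, 31.9, 29.0, 28.8 and 30.3 CPM (log2 fold change -0.72, SE 0.0731, edgeR adjusted p = 3.98e-11). The libraries did not overlap, and both groups lay far under the Vehicle mean of 137 ± 8.39 CPM (SD, n = 6). Ifit1, which binds foreign RNA, averaged 14.1 ± 1.42 against 22.8 ± 1.91 CPM (SD, n = 5 each), where Vehicle had 125 ± 7.14 CPM (SD, n = 6). Ifi44 (-0.77, SE 0.0897), Bst2, which tethers viral particles to the cell (-0.47, SE 0.0429), Oas3, which senses double-stranded RNA (-0.44, SE 0.0410), and Ifit3 (-0.61, SE 0.0904) were lower as well.

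Antigen presentation genes did not share one direction. Of 13 tested genes of MHC class II and co-stimulation, 7 were higher in the GW3965 combination and 3 lower, where 15.8% and 15.4% of all genes were. The median was 0.21, and 0.13 in a fit of only the groups compared with the replicate number as a block. The higher ones were the class II chains, their loading factors and their regulator Ciita, and the lower ones were Cd40, Cd83 and Cd86, which serve in T cell co-stimulation. Ciita was scarce, at 0.0846, 0.277, 0.296, 0.305 and 0.843 CPM against 0.122, 0.0866, 0.136, 0.1995 and 0.0816 CPM. Its libraries overlapped (edgeR adjusted p = 0.0260). Cd74, the invariant chain, stood at 178, 193, 199, 175 and 179.5 CPM against 124, 131, 140.1, 125 and 128 CPM (log2 fold change 0.51, SE 0.0392, edgeR adjusted p = 8.09e-15). The chain genes H2-Eb1 (0.69, SE 0.0686), H2-Aa (0.58, SE 0.0588) and H2-Ab1 (0.33, SE 0.0454) were higher by similar amounts, and Cd86 was lower (-0.77, SE 0.0767). Dendritic cell markers did not move as a list: of 5 tested, Irf8 was higher (0.48, SE 0.0248), Itgax (-0.88, SE 0.0747) and Xcr1 lower. The summed level of these 5 ran from 189 to 192 CPM in the combination and from 144 to 150.5 CPM with ICI + 27HC. Irf8 made up most of that sum, at 175 to 179 CPM and 124 to 130 CPM. The defining markers Flt3, Siglech and Cd209a had at most 2 counts. Of 16 tested class I and peptide-loading genes, 3 were higher (Psmb9, Psmb10, Calr) and 4 lower (H2-Q4, H2-Q6, H2-Q7, H2-T23), where 15.8% and 15.4% of all genes were, and the median of -0.017 changed sign under 1 other setting. H2-Q6 and H2-Q7 averaged 11.2 ± 2.02 and 11.2 ± 1.92 CPM in the combination against 26.4 ± 1.41 and 25.6 ± 1.32 CPM with ICI + 27HC (SD, n = 5 each), but the Q genes are near copies between which reads cannot be assigned with certainty.

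Of 14 tested genes by which myeloid cells can inhibit T cells, 5 were higher and 6 lower, where 15.8% and 15.4% of all genes were. Cd274, the gene of the checkpoint ligand PD-L1, averaged 64.8 ± 2.97 CPM in the GW3965 combination and 94.4 ± 4.84 CPM with ICI + 27HC (SD, n = 5 each; log2 fold change -0.54, SE 0.0533, edgeR adjusted p = 1.45e-11). Ptges, the prostaglandin E synthase gene, was the lowest of the list (-1.76, SE 0.117), and Lgals3 was lower too (-0.49, SE 0.0338). Vsir, another checkpoint gene, and Tgfb1 were higher (0.32, SE 0.0415, and 0.21, SE 0.0272). Pdcd1lg2, Arg1 and Ido1 had too few counts to be tested. The list thus moved both ways, with a median of -0.16.

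**Figure D3:**
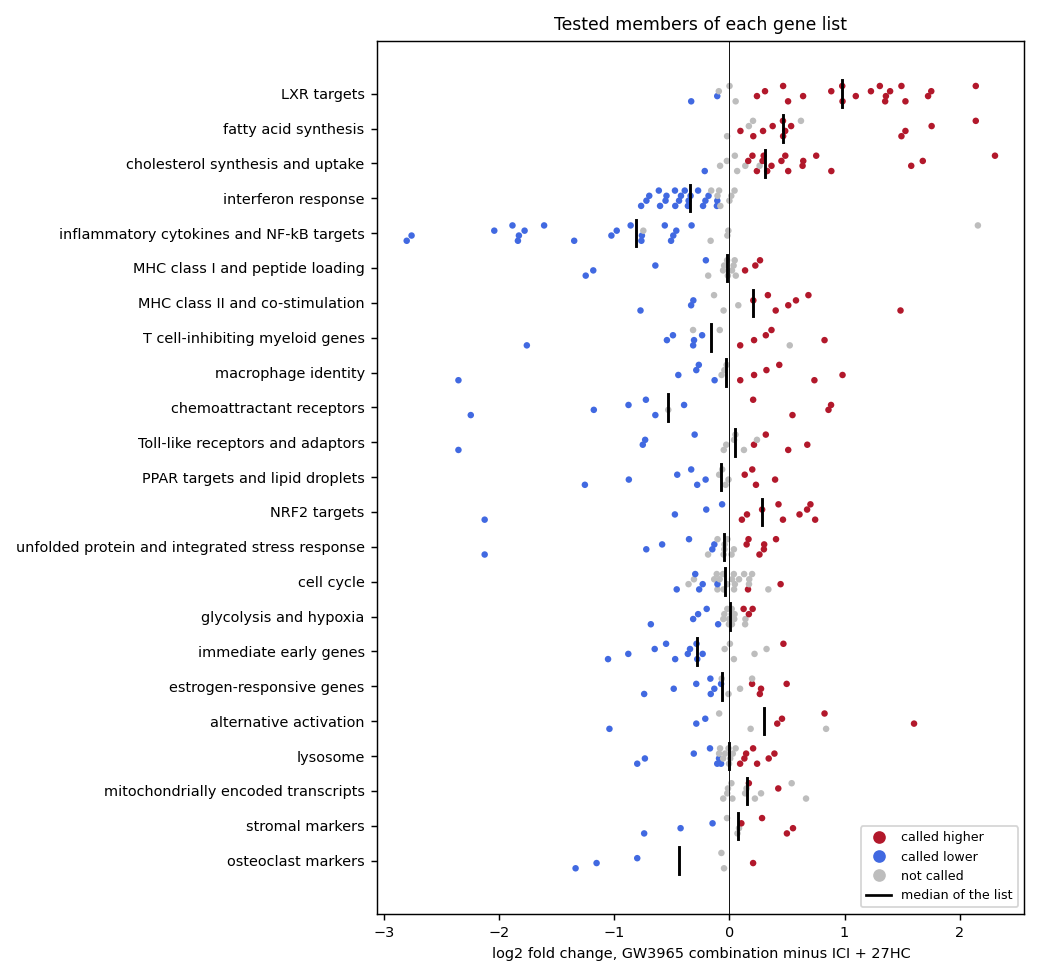
Each point is a tested member of a gene list (lists with at least 6 tested members), placed by its log2 fold change, GW3965 combination minus ICI + 27HC: red called higher, blue called lower, grey not called, with a black bar at the list's median. LXR targets (median 0.98) and inflammatory genes (median -0.81) lie farthest from 0, and many other lists hold members on both sides.

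Macrophage identity genes also moved both ways. Of 14 tested, 6 were higher and 5 lower, where 15.8% and 15.4% of all genes were, with a median of -0.034. Mertk, a receptor for the uptake of dying cells and a known LXR target, averaged 149 ± 6.75 against 75.3 ± 4.46 CPM (SD, n = 5 each), a log2 fold change of 0.98 (SE 0.0452). Csf1r (0.32, SE 0.0216) was higher, and the mannose receptor gene Mrc1 lower (-0.29, SE 0.0330). Among 10 tested genes of alternative activation, 4 were higher, with Trem2 at 0.46 (SE 0.0414) and Stab1 at 0.42 (SE 0.0939), and 3 were lower, with Socs3 at -1.04 (SE 0.110) and Il4ra at -0.21 (SE 0.0288). Of 6 tested osteoclast markers, Acp5 (-1.15, SE 0.0708), the gelatinase gene Mmp9 (-1.34, SE 0.0934) and Atp6v0d2 (-0.80, SE 0.0413) were lower and Ctsk higher. For the alternative activation and osteoclast lists too, the shares of all genes were 15.8% higher and 15.4% lower. Mmp12, a macrophage elastase gene, stood at 424, 407, 456, 452 and 424 CPM against 1222, 1204, 1252, 1206 and 1227 CPM (-1.50, SE 0.0381, edgeR adjusted p = 6.40e-32). The sheddase gene Adam8 (-0.75, SE 0.0202) and the neuropeptide gene Npy (-1.77, SE 0.0470) were likewise among the 4 lower genes with the smallest p.

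Redox and stress genes showed opposite shifts within single lists. All 13 tested NRF2 targets were called, 9 higher and 4 lower, where 31.1% of all genes were called. Hmox1, which breaks down heme, averaged 2166 ± 65.4 against 1357 ± 8.82 CPM (SD, n = 5 each; log2 fold change 0.67, SE 0.0248). Gclm, of glutathione synthesis, and catalase (Cat) were higher by 0.70 (SE 0.0308) and 0.61 (SE 0.0214). Slc7a11, the cystine importer that feeds glutathione synthesis and is a target of both NRF2 and ATF4, went the other way. It stood at 26.8, 23, 27.0, 26.7 and 24.6 CPM in the GW3965 combination and at 109, 112, 106, 114 and 118 CPM with ICI + 27HC (-2.13, SE 0.0840, edgeR adjusted p = 2.11e-24), where Vehicle had 39.7 ± 5.13 CPM (SD, n = 6). The ICI + 27HC libraries were the high ones among these 3 groups. Sqstm1, an autophagy receptor gene, was lower as well (-0.47, SE 0.0243).

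Of 20 tested genes of the unfolded protein and integrated stress response, 6 were higher and 6 lower, where 15.8% and 15.4% of all genes were. The lower ones included Atf4 (-0.35, SE 0.0273), the central factor of the integrated stress response, and Ddit3 (-0.72, SE 0.0511) and Trib3 (-0.58, SE 0.0481), which it switches on. Both combinations lay above Vehicle in Atf4, with 319 ± 8.60 CPM in the GW3965 combination, 407 ± 6.07 CPM with ICI + 27HC (SD, n = 5 each) and 124 ± 4.25 CPM with Vehicle (SD, n = 6). Gdf15, a secreted stress marker, averaged 33.6 ± 1.21 against 70.2 ± 2.26 CPM (SD, n = 5 each; -1.06, SE 0.0451, edgeR adjusted p = 1.15e-23). The higher members were endoplasmic reticulum chaperone and folding genes (Hsp90b1, Pdia4, Pdia6, Sdf2l1) and the serine synthesis genes Psat1 and Phgdh. Slc40a1, the iron exporter ferroportin, was among the 4 higher genes with the smallest p. It stood at 577, 555, 571, 570.3 and 565 CPM against 277, 255, 263, 273 and 267 CPM (1.09, SE 0.0226, edgeR adjusted p = 2.33e-35), and the libraries of each group lay close together.

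Lipid handling beyond LXR and SREBP did not share one direction. Of 14 tested PPAR targets and lipid droplet genes, 4 were higher and 6 lower, where 15.8% and 15.4% of all genes were, with a median of -0.076. Plin2, among the lower genes, is also counted in the LXR target list. Fabp4, a fatty acid carrier, averaged 24.9 ± 1.22 against 59.4 ± 1.86 CPM (SD, n = 5 each; -1.26, SE 0.0590), Fabp5 (-0.45, SE 0.0313) and the lipid droplet gene Hilpda (-0.87, SE 0.0694) were lower, and Ucp2 was higher (0.40, SE 0.0324). B4galt6, which makes lactosylceramide, was among the 4 higher genes with the smallest p, with 701, 665, 651, 682 and 672 CPM against 325, 327, 322, 319 and 324 CPM (1.06, SE 0.0258). Of 23 lysosomal genes, 7 were higher, with Hexa at 0.24 (SE 0.0205) and Scarb2 at 0.39 (SE 0.0211), and 7 lower, with the protease gene Ctsl at -0.73 (SE 0.0319). The shares of all genes were 15.8% and 15.4%.

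Growth and signalling lists held small differences with a few exceptions. Of 16 tested immediate early genes, 10 were lower and 1, Klf2, higher, where 15.4% and 15.8% of all genes were. The list's median was -0.28 against 0.0032 over all genes. Dusp1, a phosphatase that shuts off MAP kinases, averaged 101 ± 2.98 against 209 ± 5.15 CPM (SD, n = 5 each; -1.05, SE 0.0311), and Jun, a subunit of AP-1, was lower by a smaller factor (-0.65, SE 0.0257). Of 15 tested estrogen-responsive genes, 4 were higher and 7 lower, where 15.8% and 15.4% of all genes were, with a median of -0.067. The largest difference among them was at the chemokine gene Cxcl12 (-0.74, SE 0.0363), which is also a stromal marker. Igf1 (0.27, SE 0.0328) was higher and Ccnd1 (-0.29, SE 0.0465) and Bcl2 (-0.48, SE 0.0626) lower. Of 26 cell cycle genes, 2 were higher and 5 lower (26.9% called, where 31.1% of all genes were), among them Pcna higher (0.44, SE 0.0391) and the replication licensing gene Cdt1 lower (-0.46, SE 0.0499). Of 20 glycolysis and hypoxia genes, 3 were higher and 5 lower, where 15.8% and 15.4% of all genes were, with Pfkfb3 lowest (-0.68, SE 0.0391). Of 13 mitochondrially encoded transcripts, mt-Co3 (0.42, SE 0.0842) and mt-Cytb (edgeR adjusted p = 0.0492) were called higher, the latter lost under several other settings. These make up 15.4% of the list, where 31.1% of all genes were called. The medians of the cell cycle, glycolysis, lysosomal and stromal lists were within 0.1 of 0 and changed sign under at least 1 other setting.

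Several of the highest genes belonged to no list. P2ry13 and P2ry12 encode purinergic receptors for ADP and lie next to each other on chromosome 3, from 59207892 to 59262871 (GRCm38, minus strand). P2ry13 stood at 8.55, 8.99, 7.45, 7.70 and 9.60 CPM against 1.42, 1.69, 1.27, 1.50 and 1.43 CPM (log2 fold change 2.53, SE 0.110, edgeR adjusted p = 3.17e-23). P2ry12 stood at 4.36, 4.79, 4.53, 5.60 and 5.20 CPM against 1.18, 1.17, 0.863, 1.45 and 1.10 CPM (2.09, SE 0.139, edgeR adjusted p = 8.01e-17). In both genes the ICI + 27HC libraries lay below the Vehicle mean and the GW3965 combination libraries above it. Vehicle averaged 5.17 ± 0.482 CPM of P2ry13 and 3.41 ± 0.102 CPM of P2ry12 (SD, n = 6). With GW3965 alone, P2ry13 ran from 7.75 to 8.69 CPM. Neighbours were looked at after these values were seen. P2ry14 was called at a smaller difference (0.45, SE 0.138), and Igsf10 did not pass the test (0.0002, SE 0.144). Gpr171 (0.41, SE 0.401) and Med12l (0.42, SE 0.437) did not pass it either. They averaged 0.186 and 0.283 CPM, too little to show whether they differed less.

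Lbp, the lipopolysaccharide-binding protein gene, stood at 4.19, 5.59, 4.19, 3.32 and 5.62 CPM against 0.650, 0.693, 1.41, 0.349 and 0.898 CPM (2.5, SE 0.322, edgeR adjusted p = 1.70e-08). The combination libraries varied widely at this low level but did not overlap the others. Slc46a3, a lysosomal transporter gene, averaged 20.7 ± 0.976 against 5.19 ± 0.973 CPM (SD, n = 5 each; 1.99, SE 0.147), and Hpgd, which inactivates prostaglandins, 17.3 ± 1.32 against 4.81 ± 0.678 CPM (SD, n = 5 each; 1.85, SE 0.108). Hpgd was thus higher where the prostaglandin synthase gene Ptges was lower. Calhm6 was also among the 10 highest genes at 1.82 (SE 0.128).

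The difference between the combinations was then set beside the differences between the compounds given alone. Under the titles, the matching difference is GW3965 minus ICI, and under the source and treatment labels it is GW3965 minus 27HC. These use other libraries than the combinations do, but share the GW3965 libraries with each other. GW3965 minus ICI called 2500 genes higher (18.1%) and 2402 lower (17.4%), and GW3965 minus 27HC called 1735 higher (12.5%) and 1765 lower (12.8%). Of the genes called in the combinations, 2420 were also called in GW3965 minus ICI (56.2% of the 4306 and 49.37% of the 4902), and 1748 of them (72.23%) with the same sign. For GW3965 minus 27HC, 2085 were called in both (48.42% of the 4306 and 59.57% of the 3500), and 1853 of them (88.87%) had the same sign. Across the 13838 genes, which are not independent replicates, Pearson's r with the combination difference was 0.2735 for GW3965 minus ICI and 0.3751 for GW3965 minus 27HC, and Spearman's rho was 0.2283 and 0.3944. Genes of few counts and the shared scale of one table enter these correlations, and they were not used to choose between the labels.

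**Figure D4:**
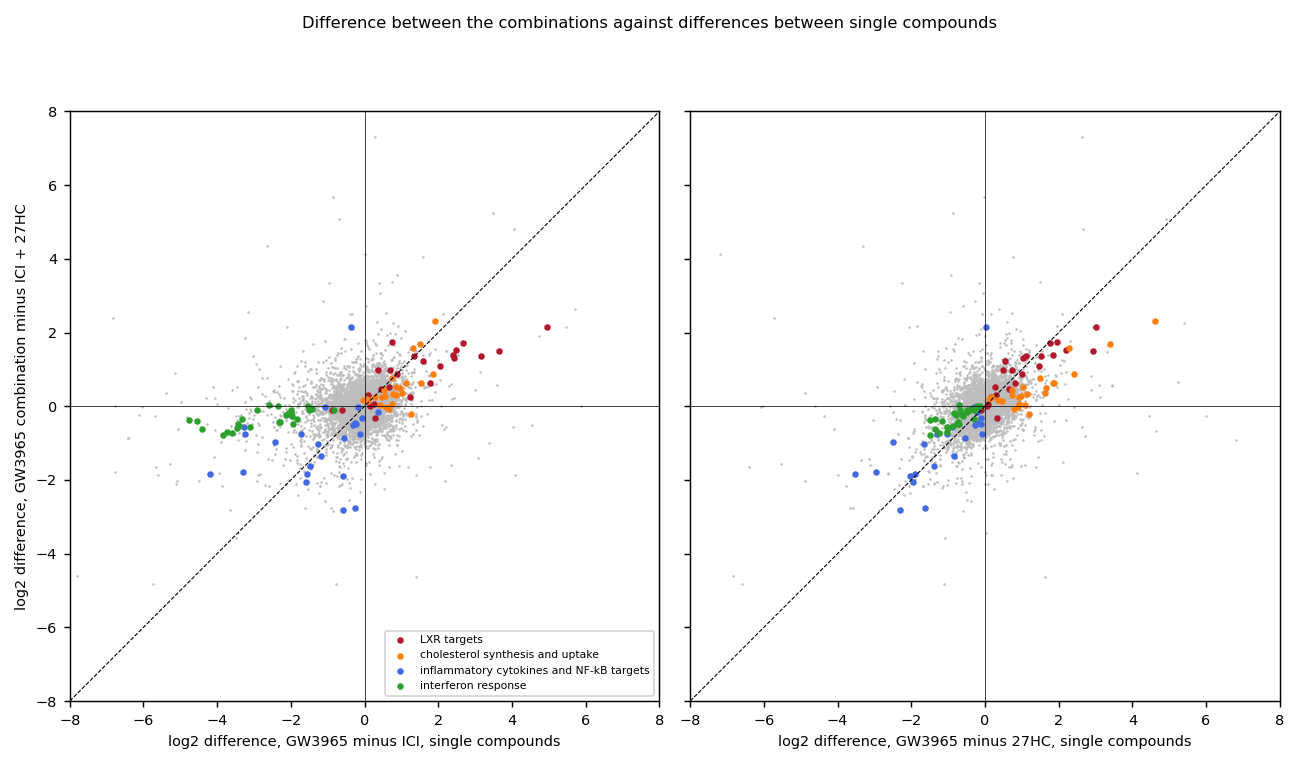
Each point is 1 of 13838 genes, with the log2 difference GW3965 combination minus ICI + 27HC on the vertical axis and, on the horizontal axis, GW3965 minus ICI (left) or GW3965 minus 27HC (right) for the compounds alone. Colours mark 4 gene lists, and the dashed line is equality. Interferon-response genes (green) lie far left of the line in the left panel, at a median of -2.35 against -0.35, and nearer to it in the right panel, at -0.72.

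Whether the difference changed between single and combined compounds was tested in the same fit as a difference of differences. Against GW3965 minus ICI, 3899 genes changed (28.2%), 1957 to a higher value (14.1%) and 1942 to a lower value (14.0%). Against GW3965 minus 27HC, 2189 genes changed (15.8%), 1115 to a higher value (8.06%) and 1074 to a lower value (7.76%). The 2 tests share the combination and GW3965 libraries, so their gene lists are not independent.

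The interferon response had the largest median change of all lists against GW3965 minus ICI, at 2.13 on the log2 scale. All 28 tested members passed the test against GW3965 minus ICI, each to a higher value, and 22 passed it against GW3965 minus 27HC, also each to a higher value. The shares of all genes that changed to a higher value were 14.1% and 8.06%. The list's median log2 difference was -2.35 for GW3965 minus ICI, -0.72 for GW3965 minus 27HC and -0.35 between the combinations. Isg15 shows the levels behind this. It averaged 154 ± 4.13 CPM with ICI, 29.9 ± 3.65 CPM with 27HC and 12.7 ± 1.70 CPM with GW3965 (SD, n = 5 each), and both combinations lay among the low groups. The 4 genes with the highest change against GW3965 minus ICI were Ms4a4c (5.90, SE 0.381, edgeR adjusted p = 6.20e-17), Slfn1 (5.55, SE 0.387), Iigp1 (4.54, SE 0.214) and Ifi206 (4.52, SE 0.187). Each is known as an interferon-responsive gene or belongs to such a family, and each was high with ICI alone and low in both combinations. Ms4a4c averaged 66.4 ± 5.91 CPM with ICI, 0.938 ± 0.406 CPM with GW3965, 1.37 ± 0.691 CPM in the GW3965 combination and 1.58 ± 0.723 CPM with ICI + 27HC (SD, n = 5 each).

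Antigen presentation genes changed as well. All 16 class I genes tested changed to a higher value against GW3965 minus ICI, and against GW3965 minus 27HC 6 changed to a higher and 5 to a lower value. Of the 13 class II and co-stimulation genes, 10 changed to a higher value in the first test and 7 in the second, with 0 to a lower value in either. Among all genes, 14.1% changed to a higher and 14.0% to a lower value in the first test, and 8.06% and 7.76% in the second. H2-Aa was lower with GW3965 than with ICI, at 27.1 ± 2.01 against 66.9 ± 6.02 CPM (SD, n = 5 each), and higher in the GW3965 combination than with ICI + 27HC, at 47.3 ± 3.01 against 31.7 ± 1.57 CPM (SD, n = 5 each). The sign thus turned under the titles' reading (change 1.88, SE 0.0834, edgeR adjusted p = 3.54e-23). Under the other reading it did not, since 27HC alone gave 22.7 ± 1.89 CPM (SD, n = 5; change 0.33, SE 0.0856, edgeR adjusted p = 0.00480).

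**Figure D5:**
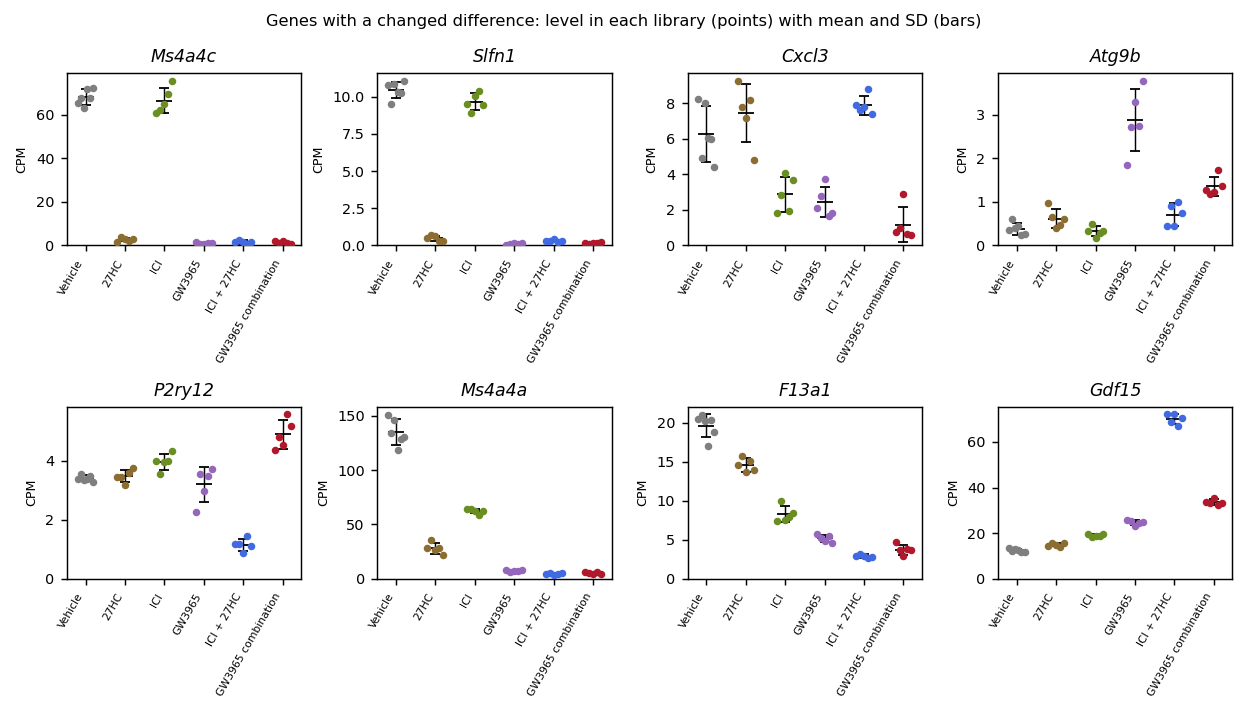
Points are libraries and bars the group mean with its SD, with the level in CPM from 0, for Vehicle (6 libraries) and 5 treatments (5 libraries each). The upper row shows genes whose difference changed against GW3965 minus ICI (Ms4a4c and Slfn1 to a higher value, Cxcl3 and Atg9b to a lower value), and the lower row genes whose difference changed against GW3965 minus 27HC (P2ry12, Ms4a4a and F13a1 to a higher value, Gdf15 to a lower value).

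Direct LXR targets changed to a lower value more often than to a higher one, that is, the difference between the combinations lay below that between the single compounds. Of 24 LXR targets, 13 changed to a lower and 5 to a higher value against GW3965 minus ICI, and 8 and 4 against GW3965 minus 27HC, where 12 did not pass the test. The shares of all genes were 14.0% lower and 14.1% higher in the first test, and 7.76% and 8.06% in the second. Scd2 had the lowest change against GW3965 minus ICI (-2.82, SE 0.0584, edgeR adjusted p = 8.17e-35), with a log2 difference of 4.96 between the single compounds. Abca1 changed by -1.12 (SE 0.0922, edgeR adjusted p = 1.59e-13) against GW3965 minus ICI and, in the opposite direction, by 0.26 (SE 0.0916, edgeR adjusted p = 0.0426) against GW3965 minus 27HC. Abcg1 passed the first test (-1.79, SE 0.0934) but not the second (-0.15, SE 0.0916, edgeR adjusted p = 0.310). Slc40a1 passed neither, with -0.0098 (SE 0.0316) and -0.013 (SE 0.0316), and its log2 differences were 1.10 and 1.10 between the single compounds and 1.09 between the combinations.

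Cholesterol synthesis and uptake genes changed to a lower value at 13 of 24 and to a higher value at 2 against GW3965 minus ICI. Against GW3965 minus 27HC, 20 of 24 changed to a lower and 0 to a higher value. Insig1 was among them (-1.52, SE 0.0522, edgeR adjusted p = 4.50e-26): its log2 difference was 2.41 between GW3965 and 27HC alone and 0.89 between the combinations. It also changed to a lower value against GW3965 minus ICI (-0.97, SE 0.0513). NRF2 targets changed to a lower value at 10 of 13 in the first test and at 13 of 13 in the second, with 0 to a higher value in either. Among all genes, 14.0% changed to a lower and 14.1% to a higher value in the first test, and 7.76% and 8.06% in the second.

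Inflammatory genes changed both ways. Against GW3965 minus ICI, 7 of 24 changed to a higher and 8 to a lower value, and against GW3965 minus 27HC 5 and 8. The shares of all genes were 14.1% higher and 14.0% lower in the first test, and 8.06% and 7.76% in the second. Cxcl3 (-2.49, SE 0.411) and Cxcl2 (-2.23, SE 0.198) were among the 4 lowest changes against GW3965 minus ICI, together with Atg9b, an autophagy gene (-2.2, SE 0.544). Cxcl2 did not pass the test against GW3965 minus 27HC (-0.49, SE 0.192, edgeR adjusted p = 0.0747). With 27HC alone it averaged 40.5 ± 4.71 CPM (SD, n = 5), within 1 SD of ICI + 27HC at 42.9 ± 3.39 CPM (SD, n = 5), and with ICI alone 12.2 ± 1.42 CPM (SD, n = 5). Acod1 (0.024, SE 0.203, edgeR adjusted p = 0.952) did not pass the first test.

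Several genes with the farthest changes against GW3965 minus 27HC had levels in ICI + 27HC that stood apart from the single compounds. P2ry12 changed by 2.2 (SE 0.189, edgeR adjusted p = 1.14e-12), and it did not fall below 2.27 CPM in any library of 27HC, ICI or GW3965 alone, where ICI + 27HC reached at most 1.45 CPM. Gdf15 (-1.79, SE 0.0674) changed to a lower value. Gdf15 averaged 14.9 ± 0.664 CPM with 27HC, 19.1 ± 0.429 CPM with ICI and 24.7 ± 1.00 CPM with GW3965, all below both combinations (SD, n = 5 each). Ms4a4a (2.13, SE 0.180) and F13a1, which encodes a clotting factor subunit made by macrophages (1.85, SE 0.139), changed to a higher value and were low in both combinations. Wdr90 (1.85, SE 0.451) and Wwc1 (-1.94, SE 0.608) were also among the genes with the farthest changes. Wdr90 varied widely in the GW3965 combination (3.20 ± 1.93 CPM, SD, n = 5), and Wwc1 lost its call when replicate 2 of ICI + 27HC (-1.59) or replicate 3 of GW3965 (-1.59) was left out.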

How the data were processed

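Bulk RNA sequencing of 46 BMDM libraries was used. Per the labels' protocols, stranded libraries of polyadenylated RNA were pooled and sequenced on 3 lanes as single reads of 100 nt and demultiplexed with bcl2fastq 2.20. The authors deposited estimated counts per gene, and the submitters' processing notes name kallisto 0.44.0 and GRCm38. The step from transcripts to genes is not given in the sources used here. For the tests these estimated counts were rounded to whole numbers, and totals moved by at most 133 counts. Reads of near-identical genes are shared out by estimation, so that values of close paralogs are uncertain. GENCODE M21 gave symbols to 24279 of 24671 genes.

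In R 4.3.3, edgeR 4.0.16 (filterByExpr by group, TMM scaling, robust quasi-likelihood fit) was fitted with a mean for each of the 9 groups of the 46 libraries (37 residual degrees of freedom). The filter kept 13838 genes, and the biological coefficient of variation was 7.55%. Contrasts were tested 2-sided with Benjamini-Hochberg adjustment over all genes and a threshold of 0.05, and standard errors are the log2 value divided by the square root of F. Levels are CPM scaled by TMM. They are not divided by gene length, so that they compare libraries, not genes. The test was also run on simulated counts in which all genes shared a single spread, close to the common spread estimated here. Those counts lacked the uneven spread between genes and the outlying libraries of these data, so that run does not vouch for the test here.

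Libraries were grouped by their titles. The named genes are receptors and lipid genes listed by hand, up to 5 members of each list with the smallest p, the 10 highest and 10 lowest called genes of at least 1 CPM without overlap, the 4 smallest p in each direction and the 4 highest and 4 lowest changes of each difference of differences, with predicted genes, pseudogenes and antigen receptor segments passed over. Some genes that this rule names are not reported here. Genes named outside this rule, for a motif, a position or as the exception in a list, were chosen after their values were seen. The comparison, the gene lists and this rule were chosen with earlier results of these data known. Alternatives were RLE and upper quartile scaling, DESeq2 1.42.0, 2 other filters on low counts, a fit of only the groups compared, that fit with a replicate block and leaving out each library.

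No pair of replicate libraries was identical, and the chi-square per degree of freedom between replicates ran from 3.91 to 12.3, where counting error alone gives about 1.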

Additional observations from a re-analysis of the deposited data

Results flagged for a closer look

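Within a group of 5 libraries, a single library stood far from the other four in 16 of 244 groups checked (a gap over 0.71 of the whole range), and chance flags about 1 in 20. Of these, 8 were replicate 3 of the GW3965 combination and 5 replicate 3 of ICI + 27HC.

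In the GW3965 combination, replicate 3 was the highest at Acod1 (35.2 CPM, the next at 18.7), Ccl3 (48.8 CPM, the next at 37.2), Cxcl2 (9.82 CPM, the next at 5.66), Cxcl3 (2.88 CPM, the next at 0.991), Nfkbia (138.5 CPM, the next at 117.4) and Nr1h3 (46.3 CPM, the next at 36.4). It was the lowest at Mertk (137 CPM, the next at 150.1) and Ucp2 (498 CPM, the next at 541). Without it, the combinations differed at 4019 genes, and the log2 fold change of Nr1h3 was -0.19 and that of Cxcl3 -3.41. Replicate 2 of the combination was the lowest at Igf1 (1004 CPM, the next at 1021).

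With ICI + 27HC, replicate 3 was the highest at Cd14 (616 CPM), Lgals3 (4816 CPM), Nr1h2 (76.3 CPM), Tgfb1 (381 CPM) and Trem2 (325 CPM). Replicate 1 was the lowest at H2-Ab1 (40.2 CPM), and replicate 4 the highest at Socs3 (22.2 CPM, the next at 17.1).

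The difference between the combinations departed from that between single compounds by a direct test at 3899 genes for GW3965 minus ICI and at 2189 for GW3965 minus 27HC (edgeR). Of the genes farthest apart for GW3965 minus ICI, Ms4a4c (5.90), Slfn1 (5.55), Iigp1 (4.54) and Ifi206 (4.52) moved to a higher log2 difference and Scd2 (-2.82), Cxcl3 (-2.49), Cxcl2 (-2.23) and Atg9b (-2.2) to a lower one. For GW3965 minus 27HC, P2ry12 (2.2), Ms4a4a (2.13), F13a1 (1.85) and Wdr90 (1.85) moved to a higher and Wwc1 (-1.94) and Gdf15 (-1.79) to a lower log2 difference.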

How the results depend on the processing

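The numbers of called genes stayed within 1.5 times the reported ones under every alternative run: 3825 to 4394 for the combinations, 3518 to 3962 for the change against GW3965 minus ICI and 1846 to 2323 for the change against GW3965 minus 27HC, or 3918 to 4272, 3738 to 3869 and 2011 to 2134 when 1 library was left out. With the replicate number as a replicate block, in a fit of only the groups compared, 4149, 3820 and 2197 genes were called. The same fit without the block called 3871, 3701 and 1972 genes. Same-numbered libraries of the 2 combinations deviated together with correlations from -0.003 to 0.082, and 3 of 10 libraries correlated best with their own number. The labels do not say what a replicate number marks, and these correlations over all genes do not settle whether it marks a batch. The share of mitochondrial transcripts was highest in replicate 5 of both combinations (2.16% with GW3965, 1.82% with ICI + 27HC). Replicate 5 was also the highest of 27HC, GW3965 and Vehicle, but replicate 2 of ICI, and the cause was not tested. With the replicate block, mt-Atp8 (edgeR adjusted p = 5.59e-04) and mt-Nd1 (edgeR adjusted p = 0.00296) gained the call. No scaling moved the median of all genes by over 0.1 on the log2 scale. Of 2678 values for single genes in the main comparison, 2598 kept direction and call, 37 lost and 27 gained the call, and 16 changed sign. The sign changes were all at Nr1h2 and Cd4, which were never called: Nr1h2 stood at -0.0029 with RLE scaling, -0.0102 without the filter, -0.0025 with DESeq2, -0.0014 with only the groups compared, -0.0032 with the replicate block and between -0.0373 and 0.0271 without single libraries, and Cd4 between -0.0611 and 0.0849. The call was lost most often at mt-Cytb (10 settings), Atg9b (9), Cd79b (8) and Ctsk (6). Of 475 values for list medians, 460 moved by no more than the median standard error of the members, and of 950 counts of list members called, 900 stayed within 1.5 times. The median of the class II and co-stimulation genes was 0.1301 with the replicate block, and that of the estrogen-responsive genes ran from -0.1285 to -0.0268 over all alternatives. The causes were not tested. Genes with few counts, such as Esr2, Il6 and Ccr2, are limited by depth, and a difference that missed the threshold there is not shown to be absent.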
